A study of Bos taurus with 13 samples.

Results

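A set of 110 genes fell between 6 h and 3 days of culture at 37 °C in bovine mesenchymal stem cells, while heat at 40.5 °C moved their group means only within set limits. The members were chosen from differences of group means on the log2(value + 1) scale, where a value is a normalised read count. A member had a mean value over the 13 libraries from 50 to under 20000 and a difference of -0.75 or lower between the 3-day and the 6 h culture at 37 °C. Its differences for heat of 6 h, heat of 3 days and recovery after heat were each under 0.5 in size. The deposited table held 16595 genes, of which 11182 had a mean value in that window and 6438 also had small differences in the heat and recovery comparisons. All 110 members passed the filter on low values that left 13684 genes for testing. Because these differences chose the members, they are given as descriptions, with no p-value.

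Polyadenylated RNA was sequenced from primary cultures of mesenchymal stem cells, which are adherent stromal cells, here from bovine umbilical cord at early passage. Treatment began a day after seeding. The 6 h control (ShortNT, n = 3) was kept at 37 °C for 6 h and the 6 h heat group (ShortHS, n = 3) at 40.5 °C for 6 h. The 3-day control (LongNT, n = 2) was kept at 37 °C for 3 days and the 3-day heat group (LongHS, n = 3) at 40.5 °C for 3 days. The recovery group (ShortHS_Recovery, n = 2) had 6 h at 40.5 °C and then recovered at 37 °C, for 66 h according to the sample titles and for 3 days according to the design text. By the titles it was harvested at the same time as the 3-day groups, and by the design text 6 h later. All groups were grown in the same low-glucose medium with fetal bovine serum. The labels do not say whether libraries of a group came from separate animals or cultures, so the spread between them may be technical.

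Stromal cells that have just been seeded attach, spread and start to divide, and in the following days they fill the dish and come into contact with each other. Transcript levels can shift as time passes whether or not a treatment is applied, and each heat duration here had a control of the same duration. Heat shock in animal cells is best known for the induction of chaperone genes by heat shock factors, together with a broad reduction of other transcripts. The difference between the controls shows change with time without heat. It also carries any shift of the library numbered replicate 3, which the 6 h control has and the 3-day control lacks. The series asked which changes from heat were immediate and which were stable or delayed.

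The deposited table gives Ensembl identifiers and pairs none of them with a name. The RefSeq gene reference at hand listed no Ensembl identifiers, so no match could be made. The members are therefore described by their values, and the labelled cell type could not be checked against its marker genes. In bulk RNA a loss of cells of a type and a loss of RNA per cell cannot be told apart.

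Libraries numbered replicate 3 stood apart. Both 6 h groups and the 3-day heat group have such a library, while the 3-day control and recovery groups have none. Members were higher in replicate 3 than in replicates 1 and 2 of the same group, by a median of 0.30 on the log2 scale in the 6 h control, 0.26 in the 6 h heat group and 0.39 in the 3-day heat group. The same medians over the 13684 tested genes were 0.01, -0.01 and 0.00. In a limma model with a term for replicate 3, this term was above 0 in 102 of the 110 members, with a median of 0.31 and a range from -1.31 to 1.504. It passed an adjusted p of 0.05 upward in 73 members and downward in 1, against 15.5% of all tested genes upward and 15.9% downward. The rule used the mean of the 6 h control with its replicate 3, while the 3-day control had none, so the measures are not independent, and the count is a description. Over the 182 genes that met the same limits with a rise of at least 0.75 in place of a fall, the term was above 0 in 35.2%. No label says how these libraries differed in origin or handling. Values from replicates 1 and 2 alone are given beside those from all libraries.

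Recovered reads per library ran from 14859428 to 39117065. A member had at least 20 reads in each library, and the median member had between 190.5 and 1097.5 reads. The mean value of a member over the libraries was between 52.99 and 9760 normalised reads, with a median of 498.5. The median over all genes of the window was 671.5. There were 10 members under 100, 66 from 100 to under 1000, and 34 (30.9%) at 1000 or above, where 37.6% of the window genes lay. The residual standard deviation (SD) within groups had a median of 0.22 on the log2 scale over the members and 0.14 over the window genes.

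The fall with time at 37 °C had a median of -0.88 on the log2 scale, a level 1.84-fold lower after 3 days. It ran from -1.77 to the threshold of -0.75, and 31 members had a difference of -1 or lower. The members nearest to the threshold had differences of -0.75 and -0.76. The nearest genes outside that met the other limits had -0.749. In each of 109 members both libraries of the 3-day control lay below all 3 libraries of the 6 h control, which 27.3% of all tested genes also did. In limma, 101 of the 110 members were lower at an adjusted p of 0.05, and over all tested genes 13.6% were lower. The rule used this comparison, so nothing is read from these counts. Without replicate 1 of the 3-day control, the call was made in 43 members and in 3.25% of all genes tested there, so it became rarer over all genes too. In replicates 1 and 2 alone the median was -0.81, with a range from -1.82 to -0.40. There, 95 members had a difference closer to 0 than with all libraries, and 78 of the 110 were still at -0.75 or lower.

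**Figure D1:**
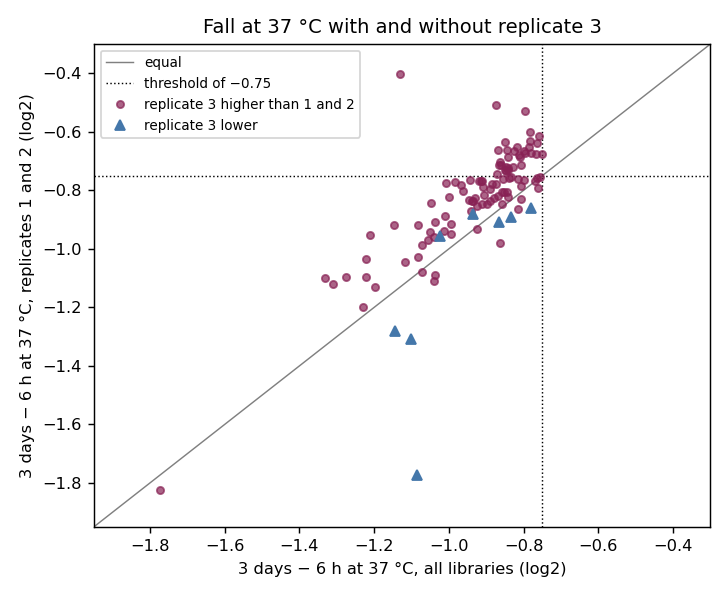
Each point is a member; the x axis gives its difference between 3 days and 6 h at 37 °C from all libraries and the y axis the same difference from replicates 1 and 2, both in log2 units. Most points lie above the line of equality, and 78 of the 110 lie at or below the threshold of -0.75 on the y axis.

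In the 6 h control the members as a group took 0.673% ± 0.0791 (SD, n = 3) of the summed normalised reads, and in the 3-day control 0.349% ± 0.0268 (SD, n = 2). They took 0.611% ± 0.0609 (SD, n = 3) in the 6 h heat group, 0.335% ± 0.0469 (SD, n = 3) in the 3-day heat group and 0.292% ± 0.00155 (SD, n = 2) in the recovery group. The share was thus low in the 3 groups harvested at about 3 days and high in both 6 h groups, and no 3-day library reached a 6 h library. The rule bounds the group means of each member in this way, so the pattern is a description. The highest 3-day share was 0.389%, in replicate 3 of the 3-day heat group, and the lowest 6 h share was 0.563%, in replicate 1 of the 6 h heat group.

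Library by library, the median member stood at -0.10, -0.10 and 0.20 on the log2 scale relative to the mean of the 6 h control in replicates 1 to 3 of that group. It stood at -0.28, -0.20 and 0.05 in replicates 1 to 3 of the 6 h heat group. In the 3-day control it was -0.96 and -0.84, and in the recovery group -1.19 and -1.16. The 3-day heat group gave -1.15 and -1.16 in replicates 1 and 2 and -0.72 in replicate 3. The median over all tested genes was between -0.01 and 0.01 in each of the 13 libraries. Both libraries of the recovery group were therefore lower than both of the 3-day control, and replicate 3 of the 3-day heat group was the highest of the 3-day libraries. All 110 members were below the 6 h control mean in 6 of the 7 libraries taken after 3 days, and 108 were in replicate 3 of the 3-day heat group.

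**Figure D2:**
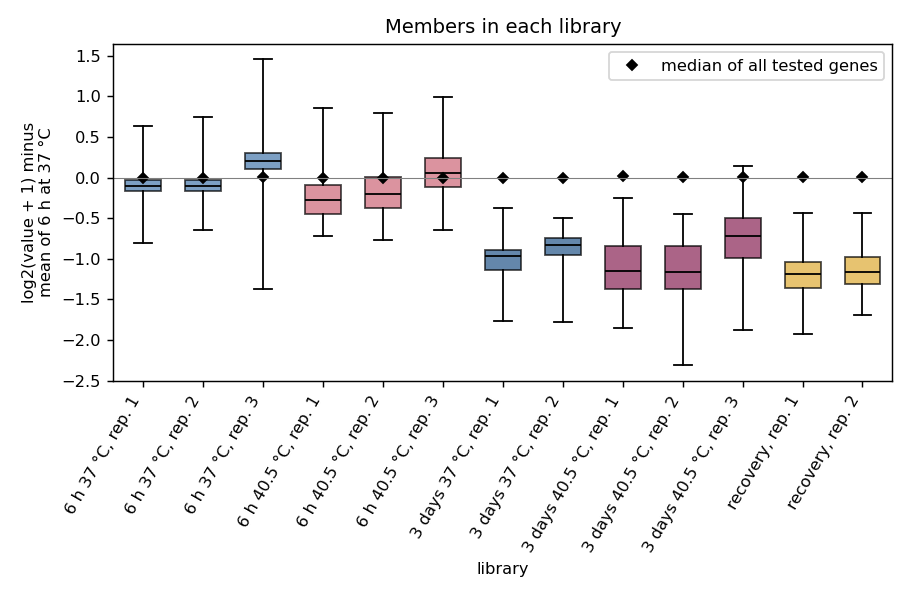
Each box holds the 110 members in a library (median, quartiles and full range) as log2(value + 1) minus the mean of the 6 h control; diamonds give the median of all tested genes. The 7 libraries taken after 3 days have member medians from -1.19 to -0.72, and replicate 3 is the highest in each group that has it.

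**Figure D3:**
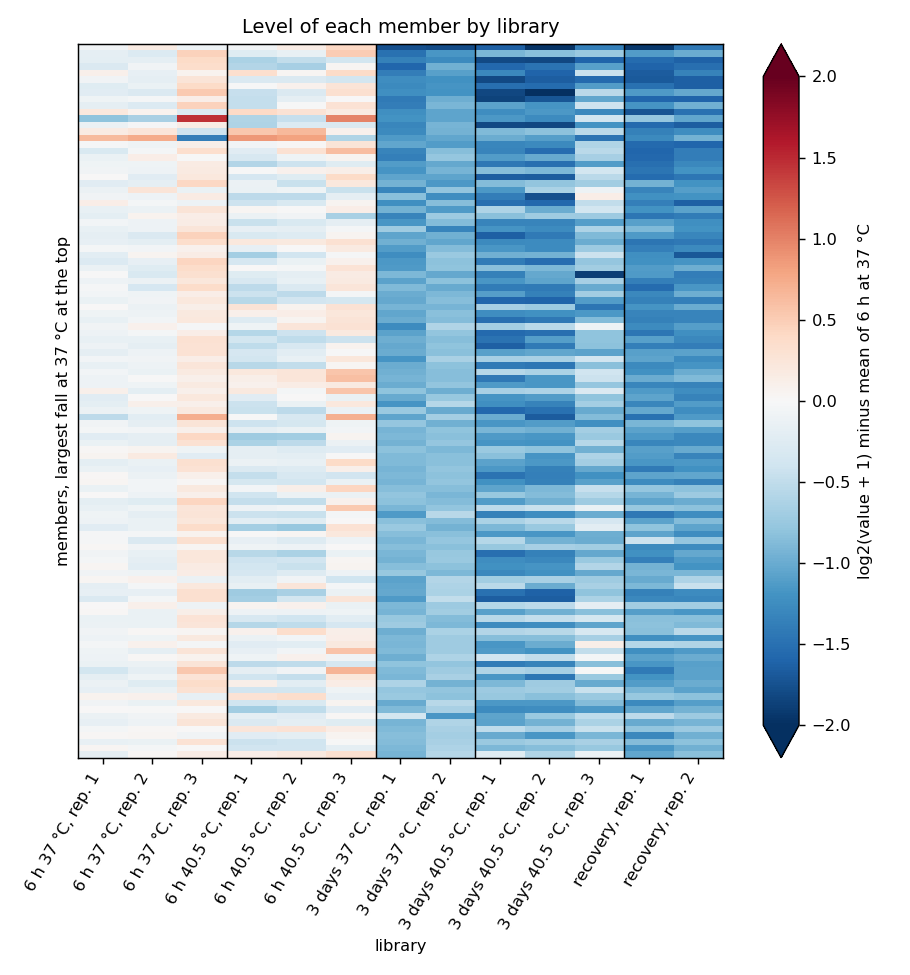
Rows are the 110 members, ordered by their fall at 37 °C, and columns the 13 libraries; colour gives log2(value + 1) minus the mean of the 6 h control, cut at -2 and 2. Rows turn from pale in the 6 libraries of 6 h to blue in the 7 libraries taken after 3 days, and replicate 3 is paler or redder than replicates 1 and 2 in most rows.

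ENSBTAG00000007589 had the largest fall. Its values in the 6 h control were 220.9, 261.7 and 216.7 normalised reads for replicates 1 to 3. They were 221.2, 258.1 and 311.4 in the 6 h heat group, in the same order. They were 67.67 and 66.68 in the 3-day control, 74.38, 58.85 and 89.13 in the 3-day heat group, and 60.22 and 85.84 in the recovery group. The highest of the 7 libraries of 3 days was at 89.13 and the lowest of the 6 of 6 h at 216.7, so the times did not overlap. At 37 °C the mean was 233.1 ± 24.9 (SD, n = 3) at 6 h and 67.18 ± 0.696 (SD, n = 2) at 3 days, giving a log2 difference of -1.77 (SE 0.21). At 40.5 °C it was 263.6 ± 45.3 (SD, n = 3) and 74.12 ± 15.1 (SD, n = 3), which gave -1.82 (SE 0.19). Its differences for 6 h of heat (0.17, SE 0.19), 3 days of heat (0.12, SE 0.21) and recovery (0.10, SE 0.23) were each smaller than their standard errors. In replicates 1 and 2 alone the difference with time at 37 °C was also -1.82.

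ENSBTAG00000025181 was next among members whose controls did not overlap. It was at 107.1, 100.6 and 168.5 normalised reads in the 6 h control and at 102.9, 109.5 and 174.5 in the 6 h heat group. After 3 days it was at 42.51 and 53.86 in the control, at 64.00, 67.73 and 72.57 in the heat group, and at 55.70 and 61.08 in the recovery group. Replicate 3 was the highest library in both 6 h groups. The log2 difference with time was -1.33 (SE 0.26) at 37 °C and -0.87 (SE 0.24) at 40.5 °C. With 3 days of heat it stood 0.498 (SE 0.26) above the 3-day control, just inside the limit, and all 3 heated libraries lay above both controls. In replicates 1 and 2 alone its difference with time at 37 °C was -1.10.

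**Figure D4:**
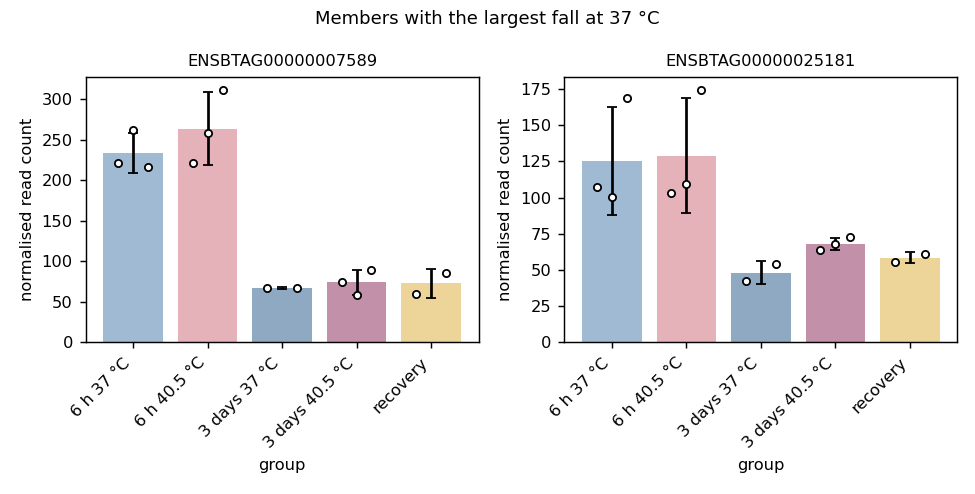
Bars give the mean normalised read count of each group for the members with the largest fall at 37 °C, error bars the SD, and circles the libraries. In ENSBTAG00000007589 the 7 libraries of 3 days reach at most 89.13 and the 6 of 6 h are at 216.7 or above; in ENSBTAG00000025181 replicate 3 is the highest circle in both 6 h groups.

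The most abundant member had 11791, 11901 and 16038 normalised reads in the 6 h control and 7182 and 8344 in the 3-day control. Heated cultures had 9730, 9894 and 13101 after 6 h and 7875, 8096 and 8331 after 3 days, and recovered cultures 7209 and 7395. It lay near the threshold, with a log2 difference of -0.76 at 37 °C, and its difference with time at 40.5 °C was -0.42. The next in abundance went from 12739 ± 1560 (SD, n = 3) to 6647 ± 635 (SD, n = 2) at 37 °C, a difference of -0.935. At 40.5 °C it went from 14100 ± 595 (SD, n = 3) to 5519 ± 209 (SD, n = 3), a difference of -1.35. These members had falls of like size at 37 °C and differed more from each other at 40.5 °C.

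Single libraries moved the differences of some members, in either direction. The member with the highest replicate 3 term had 50.55 and 56.43 normalised reads in replicates 1 and 2 of the 6 h control and 246.5 in replicate 3. In the 3-day control it had 38.17 and 42.32. Its log2 difference with time at 37 °C was -1.13 with all libraries and -0.40 in replicates 1 and 2 alone. The member with the lowest term was the reverse, with 293.7 and 316.5 in replicates 1 and 2 of that control and 72.22 in replicate 3, which lay below the 85.89 and 91.05 of the 3-day control. Its difference with time was -1.09 with all libraries and -1.77 in replicates 1 and 2 alone. It was the only member of the 110 whose controls overlapped.

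The fall was also present in the heated cultures. Between 6 h and 3 days at 40.5 °C the median difference was -0.88, with a range from -1.82 to -0.15. All 110 members had a difference below 0, and 71 were at -0.75 or lower. The 3 libraries of the 3-day heat group lay below all 3 of the 6 h heat group in 97 members, as in 27.9% of all tested genes. In limma 98 members were lower at an adjusted p of 0.05, against 22.2% of all tested genes. This comparison shares no library with that of the controls, but the limits on the heat differences bind it to the fall at 37 °C, so it is no independent check. Between matched replicates the median was -0.86, -0.94 and -0.85 for numbers 1 to 3. Members below 0 numbered 110, 109 and 107, against 50.2%, 50.6% and 50.3% of all tested genes. The fall was of like size in number 3, but these libraries entered the means the rule bounds, so this is a description.

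The spread of the fall was wider at 40.5 °C than at 37 °C, where the threshold cut the range at -0.75. The middle 50% of members lay from -1.05 to -0.66 at 40.5 °C and from -1.01 to -0.83 at 37 °C. At the weak end, a member went only from 871.1 ± 59 (SD, n = 3) to 783 ± 55.5 (SD, n = 3) at 40.5 °C, while at 37 °C it was at 1090 ± 182 (SD, n = 3) and then at 615.3 ± 34.1 (SD, n = 2). At the strong end, after ENSBTAG00000007589, came the member with the lowest replicate 3 term, which went from 265.9 ± 123 (SD, n = 3) to 83.16 ± 14 (SD, n = 3) at 40.5 °C. Between matched replicates its log2 difference was -1.86 and -1.90 for numbers 1 and 2 and -0.87 for number 3. A further strong member went from 387.7 ± 30.8 (SD, n = 3) to 134.6 ± 6.88 (SD, n = 3).

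From the end of 6 h of heat to the end of the recovery period the median difference was -1.03, a level 2.05-fold lower, with a range from -1.90 to -0.38. Both recovery libraries lay below all 3 libraries of the 6 h heat group in all 110 members, and in 34.8% of all tested genes. In limma 102 members were lower at an adjusted p of 0.05, against 24.4% of all tested genes. In replicates 1 and 2 alone the median was -0.93. Here too the rule bounds the difference. The change with time differed between 40.5 °C and 37 °C in 1 member by an interaction contrast in limma, against 13.9% of all tested genes, and in 19 members in replicates 1 and 2 alone, against 33.3%. All 7 libraries of 3 days lay below all 6 of 6 h in 92 members (83.6%), which 7.02% of all tested genes also did.

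**Figure D5:**
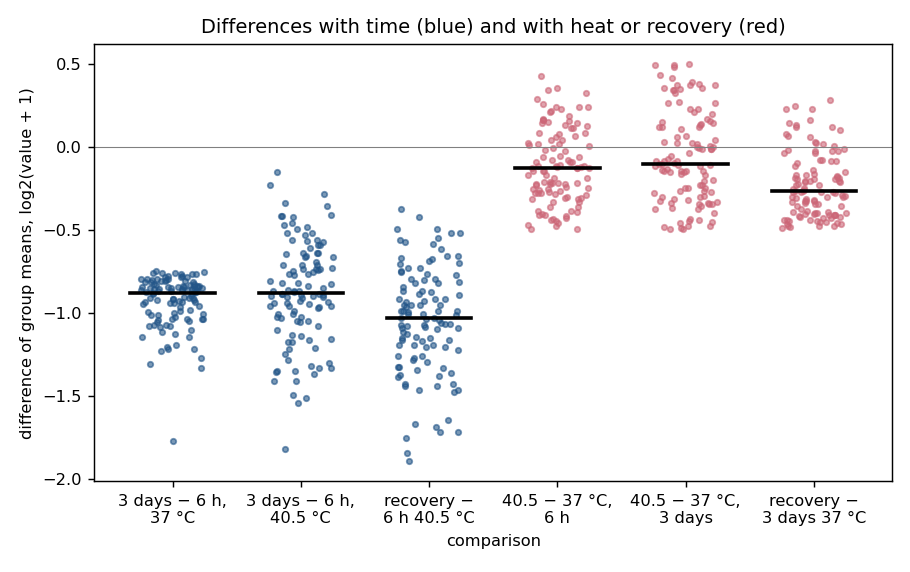
Each point is a member and each bar the median; the y axis gives differences of group means of log2(value + 1), for time and recovery after heat in blue and for heat or recovery against the control of the same duration in red. Differences with time at 37 °C, at 40.5 °C and from heat to recovery have medians of -0.88, -0.88 and -1.03, and red points are bounded at -0.5 and 0.5 by the rule.

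The heat differences share libraries with the fall that chose the members: the 6 h control for 6 h of heat, and the 3-day control for 3 days of heat. Choosing genes that are high in the 6 h control moves the 6 h heat difference down by itself. Choosing genes that are low in the 3-day control moves the 3-day heat difference up by itself. Both signs are therefore given as descriptions. For 6 h of heat the median was -0.13 and 74 members were below 0. For 3 days of heat the median was -0.10 and 67 were below 0. In the 6438 window genes with small heat differences, whatever their change with time, the medians were 0.00 and 0.03, and 49.6% and 46.2% were below 0. The highest group mean was that of the 6 h control in 74 members and that of the 6 h heat group in the other 36.

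A limit on size is not an absence of response. In limma 13 members were lower and 1 higher with 6 h of heat at an adjusted p of 0.05, against 16.7% and 14.8% of all tested genes. With the replicate number as a block the counts were 33 lower and 3 higher, against 23.8% and 20.8%. With 3 days of heat 10 members were lower and 4 higher, against 20.3% and 20.1% of all tested genes. In the comparisons of 6 h heat, 3-day heat and recovery together, 89 members passed in none (80.9%), as did 45.8% of all tested genes. The rule kept only small differences, so the share of members is bound to it and is a description. It also changed with the libraries used. In replicates 1 and 2 alone, with a smaller spread, 37 members passed in none (33.6%), and 28% of all genes tested there. In these replicates 31 members were lower and 8 higher with 6 h of heat, against 24.2% and 20.8% of all tested genes. With 3 days of heat 49 were lower and 7 higher, against 28.8% and 26.7%.

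The 3-day heat difference also depended on replicate 3. In replicates 1 and 2 alone its median was -0.23, and it was lower than with all libraries in 100 members. Outside the limit, at -0.5 or lower, were 21 members, against 2638 of the 13684 tested genes. The median over these genes was 0.00. With all libraries the rule let no member past the limit, so the count is a description. For 6 h of heat, where replicate 3 is in both groups, the median was -0.12. There, 3 members were outside, at -0.5 or lower, against 1979 of the 13684 tested genes. In all, 61 of the 110 members met the whole rule in replicates 1 and 2, where the rule found 90 genes. These 61 were 55.5% of the members and 67.8% of the genes found in replicates 1 and 2.

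Some members lay close to 0 in all the heat comparisons. The member with the smallest sum of these differences had 362.3, 372.1 and 475.7 normalised reads in the 6 h control and 359.1, 355.0 and 390.1 in the 6 h heat group. It had 244.6 and 160.3 in the 3-day control, 175.6, 166.6 and 259.7 in the 3-day heat group, and 216.0 and 175.0 in the recovery group. Within each duration the groups overlapped, and the 2 libraries of the 3-day control were further apart than the group means of the 3-day groups.

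Recovery lay below the 3-day control in most members. The difference had a median of -0.27, a level 1.21-fold lower, and was below 0 in 93 members (84.5%). It was below 0 in 92 members between the libraries numbered 1 and in 91 between those numbered 2, with medians of -0.20 and -0.33. Over the 6438 genes with small heat differences the median was 0.00 and 51% were below 0. Both recovery libraries lay below both 3-day controls in 68 members, as in 25.7% of all tested genes, and above both in 6 members, as in 24.1%. This difference and the fall at 37 °C share the 3-day control libraries. Choosing genes that are low in that control moves the recovery difference up by itself, so its sign is given as a description. If recovery lasted 3 days, as in the design text, heat treatment and the later harvest cannot be told apart here. In limma 1 member was lower and 0 higher at an adjusted p of 0.05, against 0.153% and 0.643% of all tested genes. At an unadjusted p of 0.05 these counts were 18 and 0, against 5.08% and 5.98%. The adjusted count in either direction was 1 with edgeR and 3 with DESeq2 on the recovered reads, against 0.753% and 2.27% of all tested genes. With the spread of replicates 1 and 2 alone, 36 were lower and 0 higher, against 6.76% and 6.56%. The unadjusted counts were then 54 and 0, against 14% and 12.9%. Neither group has a replicate 3, so the libraries compared were the same.

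Of the groups, recovery had the lowest mean in 73 members, the 3-day heat group in 23 and the 3-day control in 14. The rule and the shared 3-day control shape these counts, so they are a description. The median recovery difference was below 0 at each level of abundance. It was -0.17 in the 10 members under 100 normalised reads (7 below 0), -0.27 in the 66 up to 1000 (56 below 0) and -0.31 in the 34 above (30 below 0).

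The members were a minority of the genes that fell with time. In the same window of mean values 408 genes had a difference of -0.75 or lower at 37 °C, and 110 of them (27%) were members. Of the 408, 217 were past the limit for 3 days of heat, 148 lower and 69 higher. For 6 h of heat 129 were past it, 101 lower and 28 higher, and for recovery 137, 126 lower and 11 higher. All limits were passed by 46 genes. The recovery difference was below 0 in 86% of the 408 genes, so its sign was alike in the members and in the falling genes as a whole, which contain them. The replicate 3 term was above 0 in 89.2% of the 408. The largest heat differences just inside the limit were 0.497, 0.498 and 0.491 for 6 h heat, 3-day heat and recovery, and the smallest just outside were 0.501, 0.503 and 0.512.

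The fall was also read in libraries that had not chosen the genes. The rule applied to the 5 libraries numbered replicate 1 found 129 genes, of which 64 were members. The 129 genes had a median difference with time at 37 °C of -0.91. In the libraries numbered 2 the same genes had a median of -0.69. There, 128 of them were below 0, against 51.1% of all tested genes. A difference of -0.75 or lower was reached by 49 (38%), against 2.16% of the window genes. All limits of the rule were met again by 30. In the other direction the rule found 53 genes in the libraries numbered 2, of which 36 were members. The 53 genes had a median of -0.89. In the libraries numbered 1 their median was -0.88, and all 53 were below 0, against 51.2% of all tested genes. There, 39 (73.6%) were at -0.75 or lower against 4.3% of the window genes, and 30 met the whole rule. With 1 library in each group there is no test. The labels do not say whether libraries 1 and 2 came from separate animals or cultures, so a recurrence between them may be technical. The direction of the fall thus recurred in nearly all genes chosen in a single set of libraries, while 30 of the genes chosen in either set met every limit in the other.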

How the data were processed

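The deposited table holds a signal for each gene, which the authors made from read counts scaled per library with DESeq, per the file name. The submitters' processing notes list cutadapt, STAR, HTSeq, DESeq and the build ARS-UCD1.2. Annotation and strand setting are not given in the sources used here. All values were whole multiples of a step in each library (100% within 0.01 reads), so whole reads were recovered. Values were transformed as log2(value + 1), and genes with a value of at least 10 in at least 2 libraries (13684) were fitted with limma 3.58.1 in R 4.3.3 (5 group means, 13 libraries, mean-variance trend, Benjamini-Hochberg adjustment over all tested genes, two-sided). The log scale understates changes of low genes. Count tests on these reads with edgeR 4.0.16 and DESeq2 1.42.0 were alternatives. The limma procedure was tested on simulated data.

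The members and lists were chosen with earlier results of these data known. The rule for naming allowed at most 2 identifiers where no names are paired: the largest falls among members whose controls did not overlap. Pathway and marker lists could not be applied without names. Groups and replicate numbers came from the titles. Deviations from the group mean correlated between same-numbered libraries with r from 0.27 to 0.72 in the 9 pairs among groups with 3 replicates, which by this measure counted as paired, and from -0.05 to 0.13 in the 14 pairs with a group of 2, which did not. Among the groups with 3 replicates, libraries 1 and 2 of different groups correlated about as closely (0.27 to 0.48, 6 pairs) and library 3 against 1 or 2 gave -0.62 to -0.35, so the correlation mainly sets replicate 3 apart and does not separate numbers 1 and 2. No replicates were within sampling noise of each other.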

Additional observations from a re-analysis of the deposited data

Results flagged for a closer look

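The change with time differed between 40.5 °C and 37 °C in 1 member by the interaction contrast in limma, against 13.9% of all tested genes. The rule bounds this contrast, so the count is a description. The member, singled out after its values were seen, was the one with the weakest fall under heat. Its log2 difference with time was -0.15 at 40.5 °C and -0.81 at 37 °C, a difference between them of 0.66 (SE 0.16), and 0.52 in replicates 1 and 2 alone. In those replicates alone the contrast passed in 19 members, against 33.3% of all genes tested there. Groups of 2 or 3 libraries are too small to tell a single outlying library from ordinary spread.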

How the results depend on the processing

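The rule found 430 genes with a threshold of -0.5 for the fall, 31 with -1, and 62 with a limit of 0.4 on the heat differences. The number was within 1.5 times of 110 under the other pseudocounts, scalings, wider limits, the replicate block and replicates 1 and 2 only. It lay between 75 and 177 with a library left out, the extremes being without replicate 1 and without replicate 2 of the 3-day control. The 75 included 63 of the members and the 177 included 92.

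Calls for the falls with time kept within 1.5 times of their counts under all alternatives run, except without replicate 1 of the 3-day control at 37 °C. With single libraries left out they ranged from 43 to 105 at 37 °C, 84 to 103 at 40.5 °C and 87 to 105 from 6 h heat to recovery, and replicate 3 calls from 60 to 75. The shares over all tested genes ranged from 3.25% to 15%, 17.7% to 24.5%, 16.7% to 26.5% and 22.9% to 35%.

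Calls for 6 h heat, 3-day heat and recovery (14, 14 and 1 members, against 31.5%, 40.4% and 0.797% of all tested genes) were 36, 50 and 20 with the replicate number as a block (44.6%, 51.6% and 5.69%). They were 34, 49 and 21 with a term for replicate 3 (44.5%, 51.3% and 5.81%), and 39, 56 and 36 in replicates 1 and 2 only (45%, 55.5% and 13.3%). In percent of the members, they went from 12.7%, 12.7% and 0.909% to 35.5%, 50.9% and 32.7% in replicates 1 and 2 only. Calls thus became more frequent over all genes as well, but rose more in the members. Fits of only the groups compared gave 8 for 6 h heat (24.3%) and 9 for recovery (3.94%), and DESeq2 gave 3 for recovery (2.27%). With single libraries left out the counts ranged from 2 (without replicate 1 of the 6 h heat group) to 24 for 6 h heat, 5 (without replicate 1 of the 3-day control) to 21 for 3-day heat, and 0 to 3 for recovery, with shares over all tested genes from 23.6% to 33.4%, 24.4% to 45.7% and 0.00732% to 1.19%. The block moved no other count by over 1.5 times. The cause of these shifts was not tested. With 2 libraries in the 3-day control and recovery groups, small differences may go uncalled.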
